A study of Mus musculus with 20 samples.

Results

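Interleukin-1 (IL-1) family ligands and receptors were described by 9 genes, taken by symbol from the 24421 genes of the deposited count table. They were the ligand genes Il1a, Il1b and Il18, the genes of the soluble inhibitors Il1rn and Il18bp, and the receptor genes Il1r1, Il1r2, Il1rap and Il1rl1. All 9 were in the table, and all 9 were among the 12465 genes that passed the filter on low counts and were tested.

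The RNA came from bone marrow-derived dendritic cells (BMDCs) of 5 C57BL/6 mice (A to E), grown in bulk culture with 40 ng/mL of GM-CSF for 8 days. Each mouse gave cells that received either DMSO (5% in the labels) or the BET bromodomain inhibitor I-BET151 (iBET) at 3.3 μM, together with either ovalbumin alone (Ova) or ovalbumin bound by a rabbit antibody into immune complexes (IC), for 4 hours. The DMSO content of the iBET cultures is not given. This gave 4 groups of 5 libraries, called DMSO Ova and iBET Ova, DMSO IC and iBET IC, with no group left without ovalbumin. The methods place iBET before the stimulus and lysis in the culture dish, whereas the labels describe simultaneous treatment and cells sorted into lysis buffer.

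Total counts per library lay between 16447491 and 29245150 (median 21764663). All 10 dendritic cell markers listed were tested, and their summed level lay between 4316 and 8842 CPM (TMM-normalized counts scaled to the size of the library) over the 20 libraries. Most of this sum came from Cd74 and Itgax, with means of 2661 and 1962 CPM in DMSO Ova, so it says little of the other markers. Of the 10, 4 were lower with iBET and Ova (Ciita, Flt3, Kmo and Batf3, by 1.75 to 4.99 on the log2 scale, named after their values were seen), against 28.9% of all genes tested. With IC 3 were lower (the same without Kmo), against 29.0%. The medians were -0.94 and -0.67. None of the 10 was higher, against 27.7% and 27.1% of all genes. Adding mouse to the fit as a replicate block made 7 lower with either stimulus, while 1 was higher with Ova and 2 with IC. In those fits 68.7% and 68.0% of all genes passed in either direction. The part of these cells in the results was not tested. Macrophage markers (10 of 10 tested) summed to between 1975 and 2751 CPM in the DMSO libraries and to between 1477 and 2245 CPM with iBET. Neutrophil markers (9 of 12 tested) summed to between 436 and 921 CPM. Lymphoid markers summed to between 120 and 362 CPM with DMSO and to between 14.6 and 56.7 CPM with iBET, but Il7r was their only tested gene, and Cd3e, Cd3g, Nkg7 and Ncr1 had at most 3 counts in any library. In libraries of such mixed cultures, fewer cells of a type and less RNA per cell cannot be told apart.

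IL-1α and IL-1β bind IL1R1, which recruits IL1RAP to form the signalling complex. IL1R2 binds the same ligands but lacks the intracellular signalling domain and acts as a decoy, and the receptor antagonist encoded by Il1rn occupies IL1R1 without recruiting IL1RAP. IL-18 signals through IL18R1 and IL18RAP and is neutralized by the soluble protein encoded by Il18bp, while Il1rl1 encodes ST2, the receptor for IL-33, which also pairs with IL1RAP. Myeloid cells are a main source of IL-1β, which is made as a precursor and cleaved by caspase-1 in inflammasomes, so transcript counts do not measure the active cytokine.

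Il1a, Il1b and Il1rn all lie on mouse chromosome 2, and they were the 3 genes of the 9 that were higher with IC in DMSO-treated cells. Il1a spans chr2:129299610-129309972 and Il1b chr2:129364570-129371139, both on the minus strand, and Il1rn spans chr2:24336853-24351494 on the plus strand (GRCm38). Their proximal promoters are given here from RefSeq (GRCm38.p6), as the 250 bases before the annotated start. Capitals mark matches, on either strand, to a TATA box (TATAAA), an AP-1 site (TGANTCA) or a kappa B core (GGGNNTTTC).
Il1a, chr2:129309973-129310222, minus strand: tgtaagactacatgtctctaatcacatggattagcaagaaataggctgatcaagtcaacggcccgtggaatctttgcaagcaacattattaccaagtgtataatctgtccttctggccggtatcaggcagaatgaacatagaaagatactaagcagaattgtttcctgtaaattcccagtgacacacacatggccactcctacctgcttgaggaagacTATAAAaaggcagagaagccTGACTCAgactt
Il1b, chr2:129371140-129371389, minus strand: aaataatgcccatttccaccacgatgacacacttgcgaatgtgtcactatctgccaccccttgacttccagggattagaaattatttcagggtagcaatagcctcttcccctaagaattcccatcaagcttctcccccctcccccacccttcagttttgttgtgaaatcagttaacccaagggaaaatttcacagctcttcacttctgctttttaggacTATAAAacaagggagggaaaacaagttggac
Il1rn, upstream start, chr2:24336610-24336859, plus strand: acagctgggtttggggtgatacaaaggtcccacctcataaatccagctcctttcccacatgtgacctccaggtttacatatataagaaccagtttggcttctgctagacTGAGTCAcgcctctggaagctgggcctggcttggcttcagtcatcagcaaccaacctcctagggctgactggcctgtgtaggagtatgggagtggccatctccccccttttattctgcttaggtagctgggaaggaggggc
Il1rn, downstream start, chr2:24345121-24345370, plus strand: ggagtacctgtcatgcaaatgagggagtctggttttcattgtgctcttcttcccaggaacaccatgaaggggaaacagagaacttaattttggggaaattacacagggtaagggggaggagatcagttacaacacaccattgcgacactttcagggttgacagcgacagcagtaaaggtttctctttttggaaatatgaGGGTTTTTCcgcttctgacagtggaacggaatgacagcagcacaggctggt

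The promoters of Il1a and Il1b each hold TATAAA, beginning 32 and 31 bases before the start. Of the 32851 mouse promoters in the RefSeq table, counted over 300 bases each, 13.6% hold this word. The Il1a promoter also holds the AP-1 word 12 bases before the start, and the upstream Il1rn promoter holds it 141 bases before its start, as do 7.81% of all promoters. The downstream Il1rn promoter holds the kappa B core 51 bases before its start, a word present in 4.36% of all promoters. Il18 did not pass with IC in either treatment. Its promoter holds, on the other strand, TATAAA 175 bases before the start and the kappa B core 38 bases after it. The AP-1 word was in no other promoter of the 9 genes. Words for C/EBP (TTNNGCAA, TTGCGCAA) and PU.1/ETS (GAGGAA) were searched too. TTNNGCAA matched in Il18bp, Il1r1 and Il1rl1, GAGGAA in Il1a and Il1rl1, and TTGCGCAA in none. Whether any word goes with the IC response was not tested. A match is a description of letters and no evidence of binding.

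Per kilobase of exon, the scale used here to compare genes, Il1rn had the highest mean level of the 9 in every group. Lengths were the union of all exons annotated for a gene, for example 11360 bases for Il1rap and 1907 for Il1b. The transcripts present may be shorter, so the order depends on this choice. In DMSO Ova libraries it stood at 29.1 ± 8.29 CPM per kb (SD, n = 5), above Il1a in 5 of 5 mice. Il1a (11.5 ± 2.28) and Il1r2 (10.8 ± 2.21) came next and were not separated, with Il1a the higher in 2 of 5 mice. Il1b followed at 5.23 ± 1.91 and Il1rap at 2.81 ± 0.656 CPM per kb. Il18bp (1.93 ± 0.549), Il1rl1 (1.14 ± 0.451), Il1r1 (1.04 ± 0.269) and Il18 (1.03 ± 0.320) closed the order, and each of them overlapped its neighbour. With iBET and Ova the order changed below Il1rn, where Il1r2 (6.85 ± 2.03), Il1rap (5.59 ± 1.07) and Il1a (5.12 ± 1.53) overlapped. In iBET IC libraries Il1rn (18.5 ± 2.36) and Il1a (16.0 ± 3.34) overlapped in range, although Il1rn was the higher in 5 of 5 mice.

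With iBET, transcripts of most family members were lower, and Il1rap was the exception. Among cells given Ova, 7 of the 9 genes passed an adjusted p of 0.05 (edgeR quasi-likelihood test, Benjamini-Hochberg over all genes tested), 6 of them lower with iBET and 1 higher. Of all genes tested, 56.6% passed in this comparison, 28.9% lower and 27.7% higher. The 9 genes were chosen with earlier results of these data known, so such shares are given as description and are no test of an excess. Among cells given IC, 5 genes were lower and 1 was higher, against 29.0% and 27.1% of all genes and 56.1% in either direction. The median log2 fold change of the 9 genes was -0.89 with Ova and -0.60 with IC. The median over all genes tested was -0.0029 and -0.0054, values that TMM scaling largely fixes. Changes are thus relative to the other genes, and a change common to all genes would not be seen. With mouse added to the fit as a replicate block all 9 passed with Ova and 8 with IC, and 68.7% and 68.0% of all genes passed.

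With IC, both IL-1 ligand genes were higher, whichever of DMSO and iBET the cells had received. In DMSO-treated cells 3 of the 9 genes were higher (Il1a, Il1b and Il1rn) and Il1r1 was lower, against 9.59% of all genes higher, 10.7% lower and 20.3% in either direction. In iBET-treated cells Il1a, Il1b and Il1r2 were higher and none of the 9 was lower, against 5.19%, 6.63% and 11.8% of all genes. With the replicate block 5 and 4 of the 9 passed, beside 38.1% and 28.9% of all genes. The iBET and the IC comparisons share libraries (the DMSO Ova group, for example, is the control of both), so their values are given side by side and not as independent results.

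**Figure D1:**
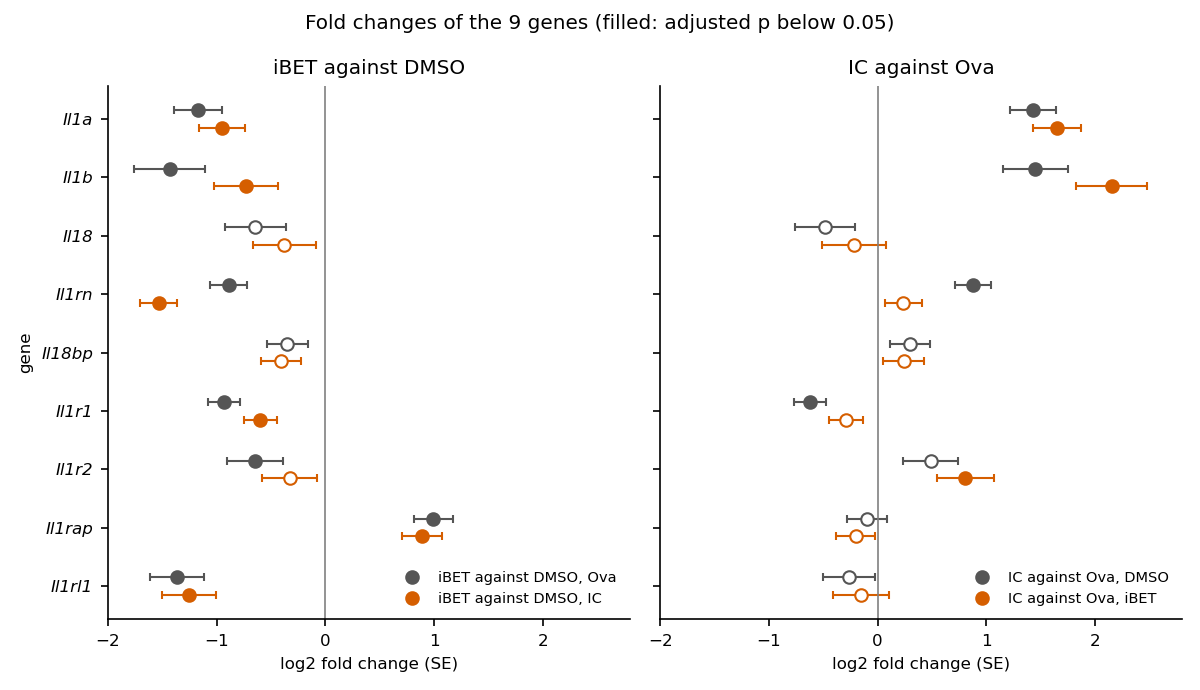
Log2 fold change (x axis, bars are the standard error) of each of the 9 genes (y axis) for iBET against DMSO (left, grey with Ova, orange with IC) and for IC against Ova (right, grey in DMSO, orange in iBET), with n = 5 libraries a group. Filled points passed an adjusted p of 0.05; Il1rap is the only gene to the right of zero in the left panel, and Il1a and Il1b lie farthest to the right in the right panel.

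Il1a encodes IL-1α, which is active as a precursor and is often released from damaged cells. In mice A to E it stood at 29.6, 24.7, 20.2, 18.3 and 20.7 CPM in DMSO Ova and at 72.4, 78.8, 64.0, 42.0 and 48.6 CPM in DMSO IC. Values in the other libraries were 10.5, 13.1, 12.0, 5.27 and 9.62 CPM in iBET Ova and 35.4, 37.3, 36.2, 23.5 and 25.4 CPM in iBET IC. In both treatments every IC library lay above every Ova library, and with either stimulus every iBET library lay below every DMSO library. IC raised Il1a 2.69-fold in DMSO (log2 fold change 1.43, SE 0.21, adjusted p = 0.00012) and 3.14-fold in iBET (log2 fold change 1.65, SE 0.22, adjusted p = 6.73e-05). iBET lowered it by 1.17 on the log2 scale with Ova (SE 0.22, adjusted p = 0.000146) and by 0.95 with IC (SE 0.21, adjusted p = 0.000684). The mean of iBET IC libraries (31.6 ± 6.58 CPM) lay above that of DMSO Ova libraries (22.7 ± 4.51 CPM). The iBET effect with IC minus that with Ova was 0.22 ± 0.30 (SE) on the log2 scale (adjusted p = 1.0), with 3 mice in one direction and 2 in the other. An exon of the antisense gene Gm14023 overlaps 222 bases of Il1a exon, and the strand setting of the counting is not given, so reads there cannot be assigned to one strand.

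Il1b encodes IL-1β. Levels in mice A to E were 13.6, 6.46, 5.65, 11.9 and 12.4 CPM in DMSO Ova and 18.5, 27.7, 21.1, 16.9 and 52.9 CPM in DMSO IC. The corresponding values were 2.75, 3.90, 4.20, 3.06 and 4.73 CPM in iBET Ova and 11.6, 14.0, 17.4, 16.1 and 24.0 CPM in iBET IC. Mouse E was the highest in DMSO IC at 52.9 CPM, and the other 4 lay between 16.9 and 27.7 CPM. The IC libraries again lay above all Ova libraries within each treatment, with a 2.74-fold rise in DMSO (log2 fold change 1.45, SE 0.30, adjusted p = 0.00216) and a 4.45-fold rise in iBET (log2 fold change 2.15, SE 0.33, adjusted p = 0.000238). With Ova, iBET lowered Il1b without overlap, by 1.43 on the log2 scale (SE 0.33, adjusted p = 0.000899). With IC the groups overlapped and the fall was 0.73 (SE 0.29, adjusted p = 0.0402), although it was seen in 5 of 5 mice. This call did not hold when mouse A (adjusted p = 0.0594), B (0.134), C (0.0549) or E (0.0923) was left out, and it held without D. It did not hold either without the filter on low counts (0.0529), in a fit of the compared groups alone (0.0656) or on the deposited signal values in limma (0.0802). Without E the fall was 0.52 on the log2 scale, and with the replicate block the adjusted p was 0.00921. The iBET effects with IC and with Ova differed by 0.70 ± 0.44 (SE) on the log2 scale, which did not pass (adjusted p = 1.0).

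Il18 encodes IL-18, which promotes interferon-γ production by lymphocytes. It was close to the limit of detection, with 6 to 32 counts per library and group means of 1.07 ± 0.330 CPM in DMSO Ova, 0.756 ± 0.182 in DMSO IC, 0.676 ± 0.142 in iBET Ova and 0.589 ± 0.231 in iBET IC. All 4 groups overlapped. The difference of iBET from DMSO with Ova was -0.65 on the log2 scale (SE 0.28, adjusted p = 0.057), negative in 5 of 5 mice, and it passed with the replicate block (adjusted p = 0.0499). The other comparisons of Il18 passed neither without nor with the block, so no further difference was detectable at this depth.

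**Figure D2:**
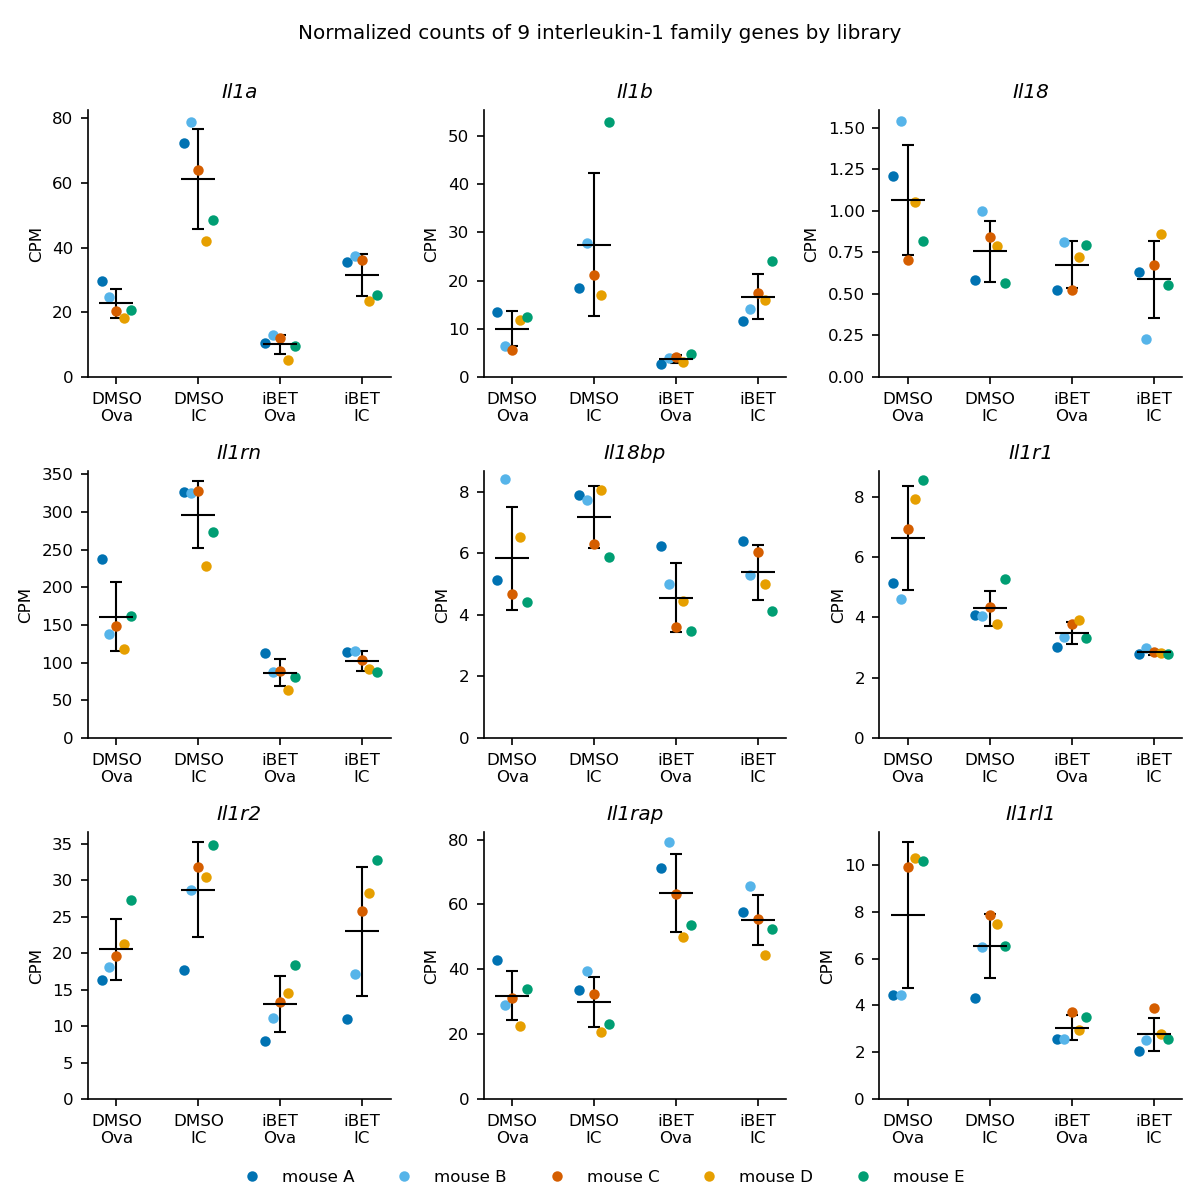
TMM-normalized CPM (y axis, linear from 0, scaled per gene) of the 9 genes in the 4 groups (x axis). Each point is a library, coloured by mouse, and the black bars are the mean and SD of 5 libraries. Il1rap is higher in the iBET groups, and mouse E is the highest for Il1b in DMSO IC at 52.9 CPM.

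Il1rn encodes the IL-1 receptor antagonist and was the most abundant transcript of the 9. In mice A to E it stood at 238, 138, 149, 118 and 162 CPM in DMSO Ova and at 327, 326, 328, 229 and 274 CPM in DMSO IC. Values in the other libraries were 113, 87.5, 88.5, 64.0 and 81.5 CPM in iBET Ova and 115, 116, 104, 91.3 and 87.0 CPM in iBET IC. Mouse A in DMSO Ova lay above mouse D in DMSO IC, so those groups overlapped by these 2 libraries, and no iBET library reached the lowest DMSO library given the same stimulus. In DMSO, IC raised Il1rn 1.84-fold (log2 fold change 0.88, SE 0.17, adjusted p = 0.00109). With iBET the difference between IC and Ova was 0.24 on the log2 scale (SE 0.17, adjusted p = 0.405), which passed with the replicate block (0.26, adjusted p = 0.0465) and with surrogate variables (0.31, adjusted p = 0.0285). iBET lowered Il1rn by 0.89 with Ova (SE 0.17, adjusted p = 0.000151) and by 1.53 with IC (SE 0.17, adjusted p = 2.32e-07).

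The iBET effect on Il1rn was thus larger with IC than with Ova by 0.64 ± 0.24 (SE) on the log2 scale, in 5 of 5 mice (range over mice 0.44 to 0.90). Without a block this difference had an unadjusted p of 0.0131 and an adjusted p of 0.96, and none of the 9 genes passed the test of the difference, against 0.0401% of all genes. Il1rn was the only one of the 9 with an unadjusted p below 0.05. With the mouse as a block the difference was -0.64 ± 0.13 (SE, adjusted p = 0.0234 in edgeR), and 0.818% of all genes passed. The same fit gave Il1b a difference in the opposite direction of 0.81 ± 0.35 (SE, adjusted p = 0.358).

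Il18bp encodes the IL-18 binding protein, a decoy that is inducible by interferon. Its levels overlapped in all comparisons, with means of 5.83 ± 1.66 CPM in DMSO Ova, 7.17 ± 0.998 in DMSO IC, 4.55 ± 1.12 in iBET Ova and 5.38 ± 0.900 in iBET IC. The iBET difference was -0.35 with Ova (SE 0.19, adjusted p = 0.119) and -0.41 with IC (SE 0.18, adjusted p = 0.0638) on the log2 scale. Both passed with the replicate block (adjusted p = 0.0361 and 0.00881), and the former passed without mouse A (0.0346). Il18bp shares 80 bases of exon with Numa1 on the other strand.

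Within a library the ratio of 2 genes does not depend on the scaling, and the ratio of ligand to antagonist counts was described in this way. Per kilobase of exon Il1rn exceeded Il1b by a median of 6.05-fold in DMSO Ova, 4.66-fold in DMSO IC, 7.26-fold in iBET Ova and 2.06-fold in iBET IC libraries. The size of these folds depends on the exon lengths used. The mean log2 ratio of Il1b to Il1rn in CPM, which is not corrected for length and serves to follow a change, was -4.06 ± 0.56 in DMSO Ova and -3.56 ± 0.70 in DMSO IC, and -4.55 ± 0.48 in iBET Ova and -2.66 ± 0.56 in iBET IC. From Ova to IC it moved by 0.50 ± 0.71 in DMSO, upwards in 3 of 5 mice, and by 1.89 ± 0.30 in iBET, upwards in 5 of 5 mice. The shift was larger with iBET in each of the 5 mice. In both treatments Il1b was higher with IC, whereas Il1rn was 1.84-fold higher in DMSO and 1.18-fold in iBET, and the latter did not pass.

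**Figure D3:**
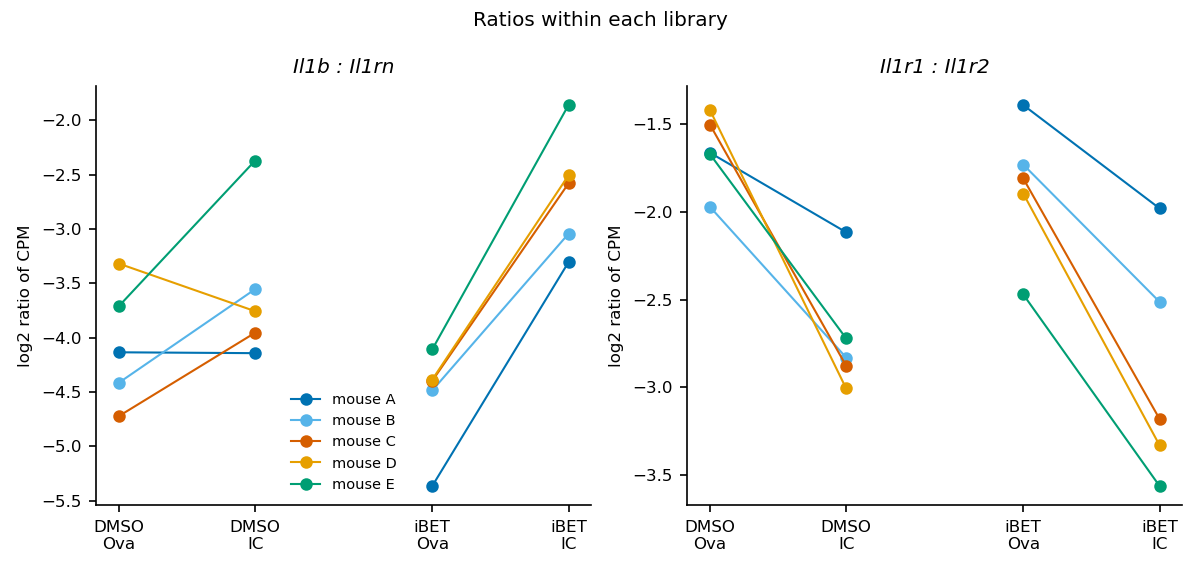
Log2 ratio of CPM (y axis) of Il1b to Il1rn (left) and of Il1r1 to Il1r2 (right) in each library by group (x axis), with lines joining the Ova and IC libraries of the same mouse and treatment. The left ratio moves from Ova to IC by 1.89 on average with iBET and by 0.50 with DMSO, and the right ratio falls in all 5 mice under both treatments.

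Il1r1 encodes the signalling receptor for IL-1. Levels in mice A to E were 5.13, 4.62, 6.92, 7.92 and 8.57 CPM in DMSO Ova and 4.08, 4.04, 4.34, 3.79 and 5.28 CPM in DMSO IC. The corresponding values were 3.03, 3.36, 3.79, 3.92 and 3.31 CPM in iBET Ova and 2.77, 2.99, 2.85, 2.81 and 2.78 CPM in iBET IC. The iBET IC libraries were nearly equal, and every iBET library lay below every DMSO library given the same stimulus. iBET lowered Il1r1 by 0.93 on the log2 scale with Ova (SE 0.15, adjusted p = 2.26e-05) and by 0.60 with IC (SE 0.15, adjusted p = 0.00225). IC lowered it by 0.62 in DMSO (SE 0.15, adjusted p = 0.00522), in 5 of 5 mice, although the groups overlapped. The latter call did not hold without mouse D (adjusted p = 0.066). In iBET the difference was -0.29 (SE 0.15, adjusted p = 0.242), although it was negative in 5 of 5 mice and the groups did not overlap.

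Il1r2 encodes the decoy receptor. In mice A to E it stood at 16.3, 18.1, 19.6, 21.2 and 27.3 CPM in DMSO Ova and at 17.7, 28.7, 31.9, 30.4 and 34.8 CPM in DMSO IC. Values in the other libraries were 7.96, 11.2, 13.3, 14.6 and 18.3 CPM in iBET Ova and 10.9, 17.1, 25.8, 28.3 and 32.8 CPM in iBET IC. Mouse A had the lowest and mouse E the highest level in every group, and the groups overlapped in each comparison, yet the paired differences had the same sign in all 5 mice. With Ova, iBET lowered Il1r2 by 0.65 on the log2 scale (SE 0.26, adjusted p = 0.0398), a call lost without mouse B (adjusted p = 0.117), C (0.11) or D (0.0893), or without the filter on low counts (0.0569). With IC the iBET difference was -0.33 (SE 0.25, adjusted p = 0.282), and it passed with the replicate block (0.00472). IC raised Il1r2 1.75-fold in iBET (SE 0.26, adjusted p = 0.0488), a call lost without mouse B (0.12), C (0.195), D (0.185) or E (0.0709). That call was also lost with library size alone in place of TMM (0.0772), without the filter (0.0618), in a fit of the compared groups alone (0.0972) and on the signal values in limma (0.067). In DMSO the IC difference was 0.49 (SE 0.25, adjusted p = 0.19), which passed without mouse A (0.0444) and with the replicate block (0.00207). With the block all 4 comparisons of Il1r2 passed.

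The ratio of signalling to decoy receptor transcripts was lower with IC, a description that was not tested. The log2 ratio of Il1r1 to Il1r2 in CPM was -1.65 ± 0.21 in DMSO Ova and -2.71 ± 0.35 in DMSO IC, and -1.86 ± 0.39 in iBET Ova and -2.91 ± 0.65 in iBET IC. It fell from Ova to IC in 5 of 5 mice in DMSO, by 1.06 on average, and in 5 of 5 mice in iBET, by 1.05. Without the block, the IC difference of Il1r2 in DMSO (adjusted p = 0.19) and that of Il1r1 in iBET (adjusted p = 0.242) did not pass in edgeR.

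Il1rap encodes the accessory chain shared by the receptors for IL-1, IL-33 and IL-36. It was the only member higher with iBET. Levels in mice A to E were 43.0, 29.1, 31.1, 22.6 and 33.8 CPM in DMSO Ova and 71.3, 79.4, 63.2, 50.1 and 53.6 CPM in iBET Ova. The corresponding values were 33.7, 39.4, 32.3, 20.8 and 23.1 CPM in DMSO IC and 57.8, 65.7, 55.5, 44.5 and 52.5 CPM in iBET IC. With either stimulus every iBET library lay above every DMSO library. The rise was 1.99-fold with Ova (log2 fold change 0.99, SE 0.18, adjusted p = 0.000105) and 1.85-fold with IC (log2 fold change 0.89, SE 0.18, adjusted p = 0.000327), in 5 of 5 mice each. IC made little difference, with -0.10 on the log2 scale in DMSO (SE 0.18, adjusted p = 0.764) and -0.20 in iBET (SE 0.18, adjusted p = 0.533). Il1rap shares 353 bases of exon with Gm20319 on the other strand.

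Il1rl1 encodes ST2, which is found in membrane-bound and secreted forms that gene counts do not separate. In mice A to E it stood at 4.45, 4.45, 9.89, 10.3 and 10.2 CPM in DMSO Ova and at 2.54, 2.55, 3.73, 2.93 and 3.52 CPM in iBET Ova. Values in the other libraries were 4.29, 6.49, 7.84, 7.50 and 6.54 CPM in DMSO IC and 2.04, 2.54, 3.88, 2.77 and 2.56 CPM in iBET IC. Every iBET library lay below every DMSO library given the same stimulus. The fall was 1.37 on the log2 scale with Ova (SE 0.25, adjusted p = 0.000108) and 1.25 with IC (SE 0.25, adjusted p = 0.000279). In DMSO Ova, mice A and B had less than the 3 other mice, by a gap from 4.45 to 9.89 CPM. ST2 is a known receptor of mast cells, basophils and eosinophils, and the summed markers of these cells were also lowest in mice A and B in every group. Mast cell and basophil markers (4 of 10 tested) summed to 18.1 and 23.2 CPM in these DMSO Ova libraries and to between 39.5 and 49.8 CPM in the 3 others. Fcer1a and Mcpt8 had at most 3 counts in DMSO Ova. Fcer1a, Ms4a2, Mcpt8, Tpsb2, Cma1 and Prss34 were not tested, with at most 15 counts in any library. Eosinophil markers summed to 52.6 and 60.2 CPM against 114 to 139 CPM. Dendritic cell markers were likewise lowest in mice A and B in every group, and macrophage and neutrophil markers were highest there. In DMSO Ova, dendritic cell markers, mostly Cd74 and Itgax, summed to 4316 and 4660 CPM in these mice and to between 5759 and 6804 CPM in the others. Mast cell and basophil sums were 13.6 to 37.7 CPM in iBET Ova, and the part of these cells in the result was not tested. IC against Ova in DMSO gave -0.26 for Il1rl1 on the log2 scale (adjusted p = 0.48). In a fit of mice A and B alone, which has 2 libraries a group and a split chosen from earlier results of these data, the IC call for Il1r1 in DMSO (-0.28, adjusted p = 0.429) and its iBET call with IC (-0.47, adjusted p = 0.0618) did not hold, nor did the IC calls in DMSO for Il1b (1.17, adjusted p = 0.0733) and Il1rn (0.78, adjusted p = 0.0825). With so few libraries a lost call does not show a difference between mice.

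Il1r2, Il1r1 and Il1rl1 lie in 1 cluster on chromosome 1 with Il1rl2, Il18r1 and Il18rap, in the order Il1r2, Il1r1, Il1rl2, Il1rl1, Il18r1, Il18rap from chr1:40074079 to chr1:40551705, all on the plus strand (GRCm38). The antisense gene Gm16894 lies within this span and had 86 counts in all libraries together. All 6 receptor genes were lower with iBET and Ova, by between 0.65 (Il1r2) and 3.03 (Il18rap) on the log2 scale, against 28.9% of all genes lower. With IC, 5 of the 6 were lower, against 29.0% of all genes, and Il1r2 passed with the block. Il1rap, which lies on chromosome 16 (chr16:26581704-26730117), moved the other way.

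Of the other genes of the family, 12 were in the table and 6 had enough counts to be tested, while Il1f5, Il1f6, Il1f8, Il1f10, Il1rapl1 and Il1rapl2 had at most 3 counts in any library. This list and those of the next paragraphs were chosen with earlier results of these data known. Their counts stand beside the shares of all genes as descriptions and are no test of an excess. With iBET 5 of the 6 were lower with Ova and 6 of 6 with IC, against 28.9% and 29.0% of all genes, and none was higher, with median log2 fold changes of -2.26 and -2.05. Il1f9, the gene of IL-36γ, fell from 10.2 ± 5.89 CPM in DMSO Ova to 1.14 ± 0.683 in iBET Ova, or by 3.15 on the log2 scale (adjusted p = 6.21e-07), and with IC from 29.4 ± 5.67 to 2.44 ± 0.512 CPM, by 3.59 (adjusted p = 3.43e-08). In DMSO it was 2.87-fold higher with IC (adjusted p = 0.00169), and in iBET the IC difference was 1.08 on the log2 scale (adjusted p = 0.0884, with the block 0.0111, and 0.0196 without mouse A). The IL-18 receptor genes fell as well, Il18rap by 3.03 with Ova (adjusted p = 4.51e-07) and 2.59 with IC (adjusted p = 2.77e-06), and Il18r1 by 2.35 with Ova (adjusted p = 0.000817) and 2.00 with IC (adjusted p = 0.00298). The IC difference of Il18rap in DMSO was -0.30 (adjusted p = 0.54), and it passed with the block (-0.28, adjusted p = 0.0457). Il18r1 in DMSO Ova lay between 2.53 and 13.6 CPM. Il1rl2, the IL-36 receptor gene, fell by 2.16 and 2.07 (adjusted p = 3.15e-13 and 8.93e-13) with little spread. It was also lower with IC, by 0.95 in DMSO (adjusted p = 3.36e-07) and 0.87 in iBET (adjusted p = 5.07e-06). Sigirr, an inhibitory receptor of the family, fell by 2.15 with Ova (adjusted p = 1.7e-05) and 2.02 with IC (adjusted p = 3.68e-05). Il33, the ligand of ST2, had 7 to 39 counts in the DMSO Ova libraries, and its iBET difference was -0.62 with Ova (adjusted p = 0.0588, with the block 0.0492, without mouse B or E as low as 0.0383) and -0.70 with IC (adjusted p = 0.0345, lost without mouse A, B or C, at up to 0.185).

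Genes that process IL-1 precursors or let the cytokines out of the cell, a list chosen with earlier results known, were mostly lower with iBET. Of 22 listed, 17 were tested, and with Ova 14 of them were lower and 1 was higher, against 28.9% and 27.7% of all genes. With IC 13 were lower and 1 higher, against 29.0% and 27.1%, with medians of -0.90 and -0.87 on the log2 scale. Nlrp3, the sensor of the best-known inflammasome, fell from 60.1 ± 7.13 CPM in DMSO Ova to 5.79 ± 1.16 in iBET Ova, or by 3.38 (adjusted p = 1.61e-11), and by 3.04 with IC (adjusted p = 5.51e-11). Mefv, the gene of pyrin, had 6 to 29 counts in DMSO Ova and 0 to 2 in iBET Ova libraries, and 8 to 24 against 2 to 4 with IC. It was lower in both comparisons (adjusted p = 1.48e-05 and 0.000467), and at these counts the size of the fall is uncertain. The sensor genes Nlrp1a and Nlrp1b fell by 2.67 and 2.45 with Ova (adjusted p = 1.14e-12 and 2.27e-09) and by 2.19 and 2.16 with IC (adjusted p = 2e-11 and 1.8e-08). In DMSO, IC raised Ninj1, whose product ruptures the membrane of dying cells, by 1.13 (adjusted p = 4.43e-06) and lowered Dfna5, the gene of gasdermin E, by 1.11 (adjusted p = 1.04e-06). Of the 17, 2 were higher and 4 lower with IC in DMSO, against 9.59% and 10.7% of all genes. In iBET 1 was higher and 1 lower, against 5.19% and 6.63%, and the block made it 1 higher and 3 lower, against 28.9% of all genes in either direction. Ctsg, Elane, Prtn3 and Cma1, protease genes of neutrophils and mast cells, had at most 5 counts in any library.

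Genes of the MyD88, IRAK and TRAF6 signalling pathway passed the test with iBET in shares near those of all genes. All 21 listed were tested, and 6 were higher and 8 lower with iBET in each of the Ova and IC comparisons, against 27.7% and 28.9% of all genes with Ova and 27.1% and 29.0% with IC, with medians of -0.11 and -0.10 on the log2 scale. The ubiquitin ligase gene Peli1 rose by 0.88 with Ova (adjusted p = 4.95e-07) and 0.84 with IC (adjusted p = 8.83e-07), and Peli3 rose by 0.90 with Ova (adjusted p = 0.000309). Tab1, a partner of the kinase TAK1, fell by 0.78 (adjusted p = 6.16e-07) and 0.77 (adjusted p = 7.9e-07), and Ikbkg, the gene of NEMO, by 0.67 with IC (adjusted p = 1.97e-05). Irak1bp1 fell by 1.05 with Ova (adjusted p = 0.0232) and 0.82 with IC (adjusted p = 0.0391), and both calls were lost without mouse A, B or C (adjusted p up to 0.114 and 0.238). With IC in DMSO, 6 were higher and 4 lower, against 9.59% and 10.7% of all genes, among them Tollip, an adaptor of IRAK1, which rose by 0.50 (adjusted p = 0.000183), and Peli3, which rose by 0.55 (adjusted p = 0.0394), a call lost whichever mouse was left out (0.0641 to 0.122). In iBET 2 were higher and 2 lower with IC, against 5.19% and 6.63%, and 5 and 4 with the block, against 28.9% of all genes in either direction.

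Genes known to respond to IL-1, most of which also respond to other inflammatory signals, were higher with IC more often than lower. Of 14 listed, 13 were tested, and 7 were higher with IC in DMSO and 5 in iBET, against 9.59% and 5.19% of all genes, with none lower. Of these calls in DMSO, that of Sod2 alone held whichever mouse was left out. In iBET the call of Sod2 was lost without B, C or D (adjusted p up to 0.115), and the others held. With the block 9 and 8 were higher and none lower, where 38.1% and 28.9% of all genes passed in either direction. Ptgs2, the gene of cyclooxygenase-2, rose by 2.34 in DMSO (adjusted p = 0.0132), a call lost without mouse E (0.98, adjusted p = 0.179), and Ccl2 by 1.37 (adjusted p = 0.0401), a call lost without B, C or E (up to 0.197). After iBET, 4 fell and 2 rose among cells given Ova (28.9% and 27.7% of all genes), while 5 fell and 1 rose among cells given IC (29.0% and 27.1%). With the block these numbers became 6 and 4 for Ova, and 4 and 5 for IC, beside 68.7% and 68.0% of all genes in either direction. Il6 fell by 3.18 with Ova (adjusted p = 5.79e-09) and 2.96 with IC (adjusted p = 6.79e-09), and Tnfaip3, a negative regulator of NF-κB, by 1.75 (adjusted p = 7.06e-07) and 1.48 (adjusted p = 4.12e-06). Cxcl1 fell by 2.55 with Ova (adjusted p = 0.000921) and by 1.19 with IC (adjusted p = 0.0241, lost without B, C or E, at up to 0.0968), and Ptgs2 by 1.55 with IC (adjusted p = 0.0357). The latter call was lost with the block (-1.05, adjusted p = 0.0572) and without A, B, C or E, and without E the difference was -0.31 (adjusted p = 0.595). Nfkbiz, the gene of an atypical IκB protein, rose by 1.02 (adjusted p = 6.7e-05) and 1.00 (adjusted p = 8e-05).

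**Figure D4:**
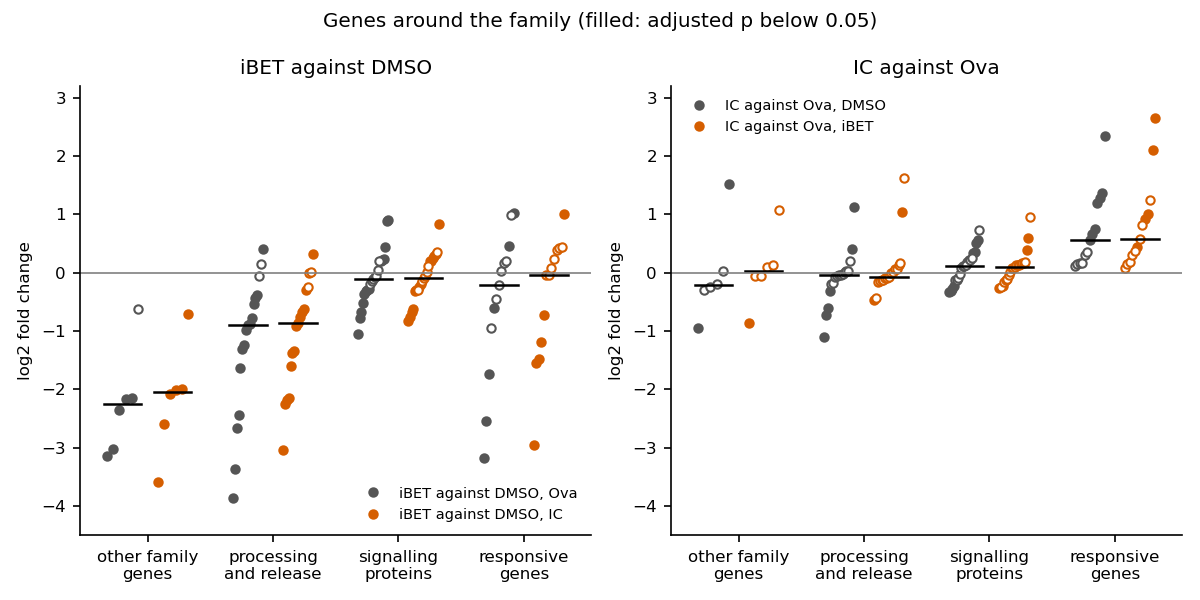
Log2 fold changes (y axis) of the tested genes in 4 lists around the family (x axis) for iBET against DMSO (left, grey with Ova, orange with IC) and IC against Ova (right, grey in DMSO, orange in iBET). Each point is a gene, filled where the adjusted p was below 0.05, and bars are list medians, which lie at -2.26 and -2.05 for the other family genes under iBET and near zero for the signalling genes.

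The genes whose log2 CPM followed each member most closely were found over the 20 libraries among 9782 genes with a mean of at least 100 counts. The points share the 4 groups and 5 mice, so these are descriptions. Il1a was followed by Inhba (Pearson r = 0.978), Mdm2 (0.975) and Lrp12 (0.962). Il1b was followed less closely, by Ptpre (0.897) and Hmga1 (0.897), and Il18 by Cdk19 (0.754), Dhx58 (0.707) and Brd9 (0.699). The genes nearest to Il1rn were Parl (0.967), Naa20 (0.966) and Il1f9 (0.964), and those nearest to Il18bp were Mpeg1 (0.911), Klk1b11 (0.900) and Ap2m1 (0.874). Among receptors, Il1r1 was closest to Smarcc2 (0.941), Tbl1x (0.939) and Gbp8 (0.938), and Il1r2 to Psmc2 (0.916), Hnrnpa1 (0.897) and Gm10052 (0.894). Il1rap was closest to Btbd10 (0.970), Orc6 (0.961) and Hsd17b7 (0.961), and Il1rl1 to Mx1 (0.973), Zc3h7b (0.958) and Etv6 (0.957). Between members the log2 CPM of Il1a correlated with that of Il1b at 0.849, with that of Il1rn at 0.821, and that of Il1r1 with that of Il1rl1 at 0.857. Il1rap was negatively correlated with each of the 8 others, from -0.425 with Il1a to -0.815 with Il1rl1.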

How the data were processed

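Bulk RNA-seq of 20 libraries was analysed, from 5 mice in 4 groups read from the labels. As the methods state, the authors trimmed and aligned the reads (HISAT2, mm10), assigned them to genes (featureCounts) and deposited raw counts per gene. A second deposited table holds signal values, in which a library's counts are scaled by its size factor. The strand setting is not given in the sources used here.

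After filterByExpr and TMM normalization, edgeR 4.0.16 (R 4.3.3) was used for a quasi-likelihood test in 1 fit of all 20 libraries, with group as the sole factor and 16 residual degrees of freedom. Adjusted p values (Benjamini-Hochberg) cover 12465 genes, with a threshold of 0.05. CPM values are TMM-normalized, and log2 CPM values use a prior count of 2. The difference of effects is the iBET effect with IC minus that with Ova. Median depth was 21764663 counts. Libraries of a group differed by more than counting error (chi-square per degree of freedom at least 13.2 over 40 pairs), so precision is set by the spread between mice. Pairs of mouse A or B with C, D or E differed most (49.7 to 155), and the other pairs lay between 13.2 and 36.6. The ± of a mean or a ratio is the SD between mice. The ± of a difference of effects is the standard error (SE) of the fit. Exon lengths and positions come from GENCODE release M21 (GRCm38) and promoters from RefSeq (GRCm38.p6), in which all 9 genes were found.

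The same letter names the same mouse in every group. Deviations from the group means were shared within a mouse (correlation over genes 0.524 on average and at least 0.307 in 30 pairs), so the mouse was tried as a replicate block. Other alternatives were DESeq2 1.42.0 without and with the block, DESeq2 size factors, library size only, 3 surrogate variables from sva 3.50.0, no filter, only the groups compared, the signal values with a pseudocount of 1 in limma 3.58.1, a log2 fold change of at least 1, each mouse left out, and mice A and B or C, D and E only. The fits were tested on simulated data.

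The 9 genes and all lists were chosen with earlier results of these data known. Named genes are the 9, the genes of the receptor cluster on chromosome 1, the 3 best correlated genes of each member, and from each list up to 4 genes per iBET comparison and 2 for IC against Ova in DMSO, those with the largest called changes. Sod2 is also named, for how the IC calls of its list held with a mouse left out. Naming the genes between Il1a and Il1rn was dropped, since 1184 genes of the table lie there. Of the genes these rules name, 1 correlated gene is not reported here.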

Additional observations from a re-analysis of the deposited data

Results flagged for a closer look

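The test of the difference of iBET effects, with the mouse as a replicate block, passed for Il1rn at -0.64 on the log2 scale (edgeR, adjusted p = 0.0234). iBET lowered Il1rn more with IC than with Ova in 5 of 5 mice. Without the block the same difference did not pass (adjusted p = 0.96). None of the 36 sets of 5 libraries (9 genes in 4 groups) held a value that stood apart from the rest by Dixon's test.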

How the results depend on the processing

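The counts of the 9 genes past the threshold were recomputed under 17 other settings. Requiring a log2 fold change of at least 1 cut them from 7 to 3 for iBET with Ova, from 6 to 2 for iBET with IC and from 4 to 2 for IC in DMSO, since most changes of the 9 were smaller. Mice A and B alone, with 2 libraries a group, gave 1 gene for IC in DMSO. Leaving out 1 mouse gave 6 to 8, 5 to 6, 3 to 5 and 2 to 3 genes for the 4 comparisons in the order of iBET with Ova, iBET with IC, IC in DMSO and IC in iBET, and 0 for the difference of effects.

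With the replicate block, the difference of effects went from 0 to 1 gene (Il1rn), in edgeR and in DESeq2. The other calls that this pairing of mice changed in edgeR are given beside the results (Il18, Il18bp, Il1r2 and Il1rn), and it changed no other call of the 9.

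Some values that were not called changed sign. For IC in DMSO, Il1rap gave 0.0041 without mouse E (lowest with a mouse left out, -0.25) and 0.0031 in mice A and B, and Il1rl1 gave 0.27 in mice A and B (2 libraries a group, in a split chosen from earlier results of these data). For IC in iBET, Il18 gave 0.072 without mouse B (lowest -0.37) and 0.017 in mice C, D and E. For the difference of effects, Il18bp gave 0.089 without mouse A (lowest -0.16) and 0.0091 in mice C, D and E, Il1rap gave 0.046 with surrogate variables, 0.065 without mouse B (lowest -0.24) and 0.046 in mice C, D and E, and Il1rl1 gave -0.42 in mice A and B. The cause was not tested. Library size alone in place of TMM moved the median of all genes by -0.11 in both IC comparisons. Il18, with 6 to 32 counts, is the member that depth limits most.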
